A study of Homo sapiens with 8 samples.

Results

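The HOX genes of clusters A to D were examined in SRA01/04 cells, a human lens epithelial cell line, from gene counts of 8 RNA-seq libraries. The members were the 39 protein-coding genes of GENCODE release 29 named HOXA, HOXB, HOXC or HOXD with a number, out of 58735 genes in the table. They comprise 11 genes of HOXA on chromosome 7, 10 of HOXB on chromosome 17, 9 of HOXC on chromosome 12 and 9 of HOXD on chromosome 2. Of the 39, 35 had at least 1 count and 29 had enough counts to be tested.

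The study asked how SMURF1, a ubiquitin ligase that marks proteins of the TGF-β and BMP pathways for breakdown, shapes the behaviour of lens epithelial cells. The first group, shSmurf1, held 4 libraries of cells in which a short hairpin RNA knocks down SMURF1. The other group, shControl, held 4 libraries of cells with a control hairpin, which the labels otherwise call wild type. Recombinant human TGF-β2 (20 ng/ml, 48 h) was given to all 8 cultures, and none without it was analysed here. The labels call the libraries biological replicates. They do not say whether each line was 1 clone or how cultures were kept apart, so p-values measure only the spread between these libraries.

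HOX proteins are transcription factors that bind DNA through a homeodomain and give cells their position along the head-to-tail axis of the embryo. The genes sit in 4 clusters in the order in which they are used, with low numbers expressed further forward and high numbers further back, and genes with the same number in different clusters (a paralog group) are close relatives. Polycomb complexes keep the clusters silent, trithorax complexes keep them active, and retinoic acid switches on the low-numbered genes first. The lens forms from head ectoderm in front of the embryonic HOX domain, while many adult and cultured mesenchymal cells keep a HOX pattern of their site of origin.

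SMURF1 had 51.4, 50.4, 51.4 and 51.2 CPM (counts scaled to library size) in the 4 shSmurf1 libraries, against 85.8, 93.3, 88.5 and 88.1 CPM in the 4 shControl libraries. The groups did not overlap, and SMURF1 stood at 57.5% of shControl (log2 fold change −0.80 ± 0.055 SE, edgeR quasi-likelihood adjusted p = 2.86e-09). Library totals ran from 14688651 to 17030394 counts. The shSmurf1 replicate 3 library stood apart. Its trend of expression with GC content had a slope of −0.121 log2 units per 10 points of GC, against 0.0733 to 0.117 in the other shSmurf1 libraries and −0.0619 to −0.0212 in shControl. The tested HOX genes had a median exonic GC content of 54.9%, against 49.2% over all tested genes, so counts of changed HOX genes are given with and without that library and with the GC trend removed. The mitochondrial share of counts was 5.07% to 6.34% in shSmurf1 and 4.03% to 4.4% in shControl.

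The lens identity of the cells was partial. PAX6, the master regulator of eye development, averaged 34.0 CPM in shSmurf1 and 33.3 CPM in shControl, and did not pass. Of 10 lens epithelium markers 4 were tested, and the other 3 passed. GJA1, a gap junction gene, stood at a log2 fold change of −0.83 (edgeR adjusted p = 1.28e-08), SIX3 at −0.37 (adjusted p = 0.0106) and MAB21L1 at 0.79 (adjusted p = 0.0153). FOXE3, CRYAA, CDH1, PROX1 and MAF each averaged 0.188 CPM or less in both groups. The summed list stood at 92.7 to 101 CPM in shSmurf1 against 129 to 136 CPM in shControl. That fall lay largely in GJA1, which averaged 44.8 CPM in shSmurf1 and 80.0 CPM in shControl. SIX3 averaged 12.6 CPM in shSmurf1 and 16.2 CPM in shControl, and MAB21L1 3.31 CPM in shSmurf1 and 1.92 CPM in shControl. The sum therefore does not show a fall of the lens markers as a whole. Of 10 fibroblast markers 9 were tested, 4 rose and 1 fell, none was at 0, and their sum was 1971 to 2690 CPM in shSmurf1 against 2488 to 2714 CPM in shControl. Of 10 simple epithelium markers 5 were tested, none rose and 1 fell. Their sum was 1159 to 1300 CPM in shSmurf1 against 1387 to 1456 CPM in shControl. The part of these marker shifts, and of the mitochondrial share, in the HOX results was not tested. In bulk RNA, fewer cells of a type and less RNA per cell cannot be told apart.

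The HOXA, HOXB and HOXC clusters were expressed and the HOXD cluster was nearly silent. Levels per exon length are given in RPKM, which divides CPM by exon length in kilobases. The HOXB cluster held 69.5% ± 0.856 of the summed RPKM of all HOX genes in shSmurf1 and 71.4% ± 0.518 in shControl (mean ± SD, n = 4 each). The share was 69.7%, 68.2%, 70.2% and 69.7% in the shSmurf1 libraries, against 71.8%, 70.6%, 71.5% and 71.6% in the shControl libraries, without overlap, while the summed CPM of the cluster was 413 ± 7.92 in shSmurf1 and 382 ± 6.20 in shControl. HOXA held 16.0% ± 0.480 in shSmurf1 and 13.7% ± 0.492 in shControl. Its share was 15.6%, 16.6%, 16.1% and 15.7% in the shSmurf1 libraries, against 13.4%, 14.3%, 13.3% and 14% in the shControl libraries, so the groups did not overlap. HOXC held 14.4% ± 0.592 in shSmurf1 and 14.8% ± 0.375 in shControl, with overlapping libraries. HOXD held 0.0836% ± 0.0409 in shSmurf1 and 0.0436% ± 0.0179 in shControl.

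**Figure D1:**
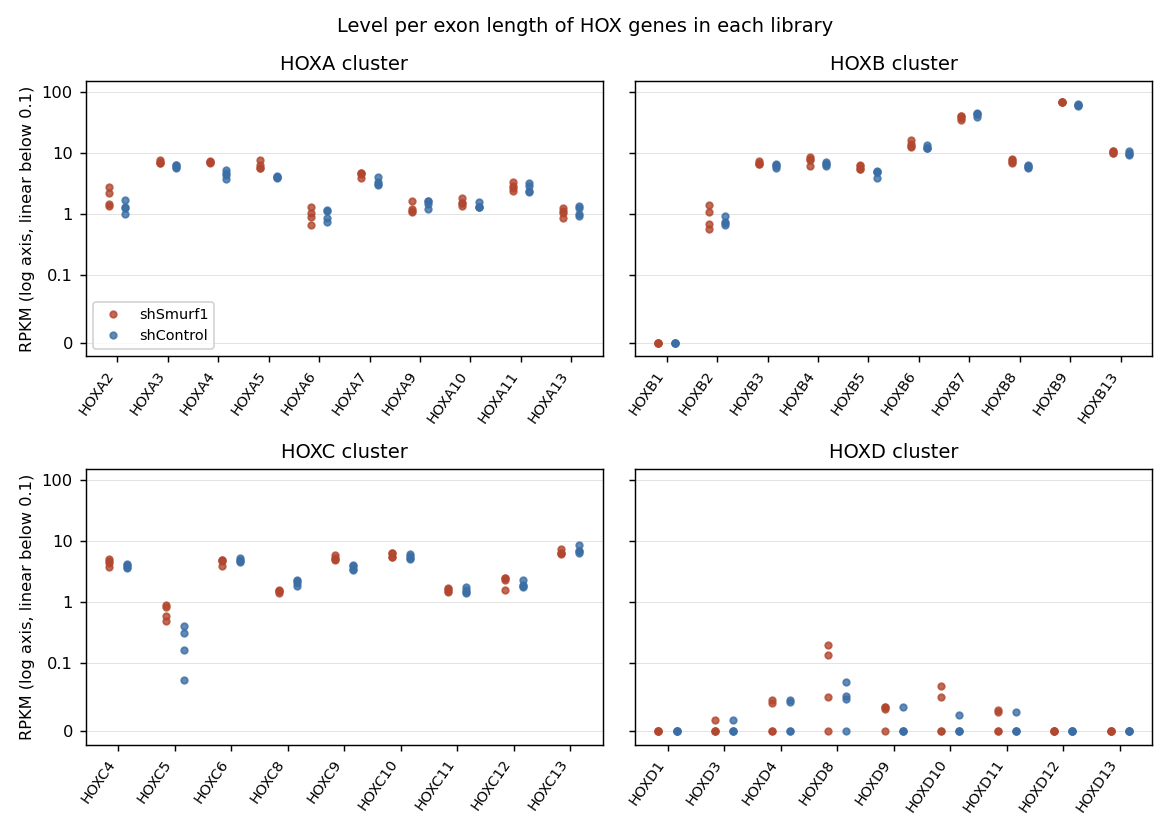
Level of the HOX genes of each cluster in every library, in RPKM on a log axis that is linear below 0.1, with genes in numerical order within each cluster; each point is 1 library, shSmurf1 left of shControl. HOXB9 stands highest in both groups, and no HOXD gene averages above 0.0952 RPKM.

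HOXB9, a thoracic-level gene, had the highest level per length, at 67.8 ± 0.860 RPKM in shSmurf1 and 60.6 ± 1.41 RPKM in shControl, or 29.7% of the HOX total in shSmurf1 and 28.9% in shControl. HOXB7 followed at 37.8 ± 2.71 RPKM in shSmurf1 and 42.6 ± 2.37 RPKM in shControl. HOXB6 came next with 14 ± 1.69 RPKM in shSmurf1 and 12.4 ± 0.846 RPKM in shControl. HOXB13, the most posterior gene of its cluster and known for its role in the prostate, came after it at 10.3 ± 0.456 RPKM in shSmurf1 and 9.83 ± 0.716 RPKM in shControl. On full exon length these 4 ranks were the same in both groups, and in each group the libraries of neighbouring ranks did not overlap. Below them the order was mostly unresolved: of the 28 pairs of neighbours among the 29 tested genes, 22 overlapped in shSmurf1 and 23 in shControl. Only 921 of the 1747 exonic bases of HOXA4, and 904 of the 2411 of HOXA7, are shared with no other gene. The order was not redone on such bases, so the ranks, the first 4 included, hold for full exon length alone. In each group 26 members averaged at least 1 RPKM.

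HOXC13, which acts in hair and nail, led the HOXC cluster at 6.62 ± 0.613 RPKM in shSmurf1 and 7.20 ± 0.980 RPKM in shControl, and HOXC5 was its lowest at 0.700 ± 0.190 RPKM in shSmurf1 and 0.242 ± 0.151 RPKM in shControl. HOXA3, needed for thymus and parathyroid development in mouse, stood at 7.06 ± 0.476 RPKM in shSmurf1 and 6.01 ± 0.324 RPKM in shControl. In shSmurf1 its libraries overlapped those of HOXA4, at 7.03 ± 0.302 RPKM, and in shControl HOXA3 was the highest of its cluster on full exon length. HOXA6 had the lowest mean of HOXA, at 0.972 ± 0.267 RPKM in shSmurf1 and 0.975 ± 0.208 RPKM in shControl. In both groups its libraries overlapped those of HOXA13. Of the exonic bases of HOXA6, 770 of 1285 are shared with no other gene, and of those of HOXC5, 724 of 1805. The order within each cluster was not redone on such bases. Expressed members thus reached paralog group 13 in all 3 of these clusters.

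A further 4 members had no count in any of the 8 libraries: HOXB1, a hindbrain gene, and HOXD1, HOXD12 and HOXD13, the last a gene of digit development. The other 6 HOXD genes had between 2 and 23 counts over the 8 libraries together. HOXD8 had the most, with 8, 0, 2 and 6 counts in shSmurf1 against 0, 2, 2 and 3 counts in shControl. HOXD10 had 0, 2, 0 and 3 counts in shSmurf1 against 0, 0, 0 and 1 in shControl. A count of 0 allows up to 3 counts, which is 0.179 to 0.202 CPM in these libraries, counting error alone. No HOXD gene passed the count minimum. With no filter on low counts edgeR fitted these 6 and called none (lowest adjusted p = 0.525, HOXD8; lowest unadjusted p = 0.213), and DESeq2 gave them no adjusted p (lowest unadjusted p = 0.295). A difference at this level was not detectable.

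The long non-coding RNAs of the HOXD cluster, HOXD-AS2, HAGLR and HAGLROS, also had no count. Genes further out on either side of the cluster were expressed. MTX2, a mitochondrial import gene, averaged 22.3 ± 1.16 CPM in shSmurf1 and 23.1 ± 1.56 CPM in shControl, and ATP5MC3, a subunit of ATP synthase, averaged 82.3 ± 3.45 CPM in shSmurf1 and 82.9 ± 6.09 CPM in shControl. LNPK, which shapes the endoplasmic reticulum, fell to 50.3 ± 6.32 CPM in shSmurf1, against 59.4 ± 2.20 CPM in shControl (log2 fold change −0.24, edgeR adjusted p = 0.0279). LNPK no longer passed without any 1 of shControl replicates 1, 2 or 3 or shSmurf1 replicates 1, 2 or 4, with adjusted p up to 0.103. EVX2, the homeobox gene next to HOXD13, had at most 0.197 CPM in any library.

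The promoters of expressed and silent members are printed from RefSeq (GRCh38.p14), from 250 bases before to 50 bases after a transcript start, to show CpG sites at members that were counted beside those at members at 0. Of the 39 members, 20 matched by symbol, with 27 windows. Capitals mark CG dinucleotides. HOXA4 (chr7:27130708-27131007, minus strand) and HOXC5 (chr12:54016638-54016937, plus strand) are the windows of genes that rose in shSmurf1, while HOXB1 (chr17:48530962-48531261, minus strand) and HOXD12 (chr2:176099545-176099844, plus strand) had no count. The HOXC5 window is also the window of HOXC4, since their RefSeq transcripts share that start. HOXC4 did not pass, and the counted HOXC5 model begins downstream at 54032853, so the window is not shown to be the promoter from which the HOXC5 reads came.
HOXA4: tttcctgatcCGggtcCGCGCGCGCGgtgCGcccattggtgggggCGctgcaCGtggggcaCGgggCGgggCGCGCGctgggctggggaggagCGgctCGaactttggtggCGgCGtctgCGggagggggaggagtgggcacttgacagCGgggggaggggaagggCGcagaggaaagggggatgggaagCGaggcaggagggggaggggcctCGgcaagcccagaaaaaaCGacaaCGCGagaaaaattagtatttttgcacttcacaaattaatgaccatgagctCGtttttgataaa
HOXC5: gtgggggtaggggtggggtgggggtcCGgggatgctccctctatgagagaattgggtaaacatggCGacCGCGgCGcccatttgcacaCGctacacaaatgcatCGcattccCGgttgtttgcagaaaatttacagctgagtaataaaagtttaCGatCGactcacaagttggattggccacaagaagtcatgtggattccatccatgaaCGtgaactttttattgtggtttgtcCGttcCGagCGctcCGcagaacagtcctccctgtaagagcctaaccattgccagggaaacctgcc
HOXB1: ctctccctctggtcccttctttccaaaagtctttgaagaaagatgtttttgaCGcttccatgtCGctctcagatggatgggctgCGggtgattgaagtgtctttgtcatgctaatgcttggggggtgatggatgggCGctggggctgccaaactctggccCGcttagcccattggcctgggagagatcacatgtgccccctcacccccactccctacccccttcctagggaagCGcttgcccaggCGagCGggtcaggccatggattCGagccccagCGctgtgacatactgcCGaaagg
HOXD12: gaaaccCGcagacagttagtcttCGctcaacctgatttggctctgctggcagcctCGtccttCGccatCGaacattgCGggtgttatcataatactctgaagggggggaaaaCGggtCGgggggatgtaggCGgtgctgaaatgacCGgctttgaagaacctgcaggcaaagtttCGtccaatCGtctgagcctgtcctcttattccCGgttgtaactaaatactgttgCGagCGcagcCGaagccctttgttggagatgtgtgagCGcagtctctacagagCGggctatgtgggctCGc

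The HOXA4 window held 27 CG dinucleotides, an observed to expected ratio of 1.03, and the HOXC5 window held 15, a ratio of 0.755. The HOXD12 window held 19, a ratio of 0.868, and the HOXB1 window held 11, a ratio of 0.436. The median ratio over 35116 RefSeq windows was 0.579. Over the windows of the HOXD cluster, which was nearly silent, the median was 0.869, and over those of the HOXA cluster it was 0.815. HOXA3 alone supplied 7 of the 16 HOXA windows, with ratios from 0 to 1.05, so the HOXA median leans on that gene. Single windows ran from 0 to 1.27 in HOXA and from 0.244 to 0.991 in HOXD. The windows at hand therefore do not rank the clusters by CpG content.

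Motifs were counted on both strands in the 27 HOX windows and in all windows. HOXA3 supplied 7 of the 27, so it weighs most of any member in the HOX shares. The window that HOXC4 and HOXC5 share was counted for each of them. HOXB supplied 1 window, that of HOXB1, which had no count, so the shares leave out the expressed HOXB genes. CAGAC, a half-site of the SMAD proteins that carry TGF-β signals, was found in 40.7% of HOX windows, with 1 match in the HOXA4 window and 2 in that of HOXD12, which had no count, and in 45.3% of all windows. GGCGCC, a GC-rich SMAD element, was found in 29.6% of HOX windows, that of HOXC5 among them, and in 19.2% of all. TGATNNAT, a site that HOX and PBX proteins bind together, was found in 11.1% of HOX windows and 7.4% of all, among them the HOXB1 window at 125 bases before the start. In mouse, sites of this kind serve the self-regulation of Hoxb1. TATAAA was found in 18.5% of HOX windows and 11.5% of all, and not in the 4 printed windows.

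With SMURF1 knocked down, 9 of the 29 tested HOX genes rose, none fell and 20 did not pass. HOXA3, HOXA4, HOXA5, HOXA7, HOXB5, HOXB8, HOXB9, HOXC5 and HOXC9 made up the 9. The test was edgeR's quasi-likelihood test over 15647 genes, called at a Benjamini-Hochberg adjusted p under 0.05. Over all genes tested 22.5% changed, 10.3% rising and 12.2% falling, so the 31.0% of HOX genes that rose stood above the 10.3% of all genes and the share that fell stood below the 12.2%. The 9 include HOXC5, which entered the test through the group in which it was high. Under a filter of 1 CPM in 4 libraries HOXC5 was not tested, and 8 of 28 HOX genes were higher and 1 lower. In that fit 1613 of 14582 genes were higher and 1901 lower. The median log2 fold change of the 29 was 0.16, against 0.0074 for all genes, and 22 of the 29 were above 0. At an unadjusted p under 0.05, 12 were higher and 2 lower. DESeq2 called 8 higher and none lower, and limma-voom called 9 higher and none lower. In 9 of the 29 (31.0%) the 2 groups of libraries did not overlap, against 23.7% of all genes tested. Of those 9, 8 were among the genes that rose and the other was HOXC8.

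Without shSmurf1 replicate 3, 11 HOX genes were higher and 2 lower. In the same fit 16.4% of all genes tested were higher and 17.3% lower, or 33.7% in either direction. The 9 genes were all kept, HOXB4 and HOXB6 joined them, and HOXB7 and HOXC8 were the 2 lower. With the GC trend removed, 8 were higher and 1, HOXB7, was lower, with HOXB8 lost at an adjusted p of 0.0505. There 14.2% of all genes were higher and 14.5% lower, or 28.7% in either direction. The 8 of 29 HOX genes that were higher stood above that 14.2%, and the 1 that was lower stood below the 14.5%. In either direction, the 9 HOX genes called, 31.0% of the 29, lay near the 28.7% of all genes. With both changes, 7 were higher and 1 lower, against 14.1% and 14.3% of all genes. Without shControl replicate 3, and likewise without shSmurf1 replicate 1, edgeR called 5 higher and none lower. Over all genes 8.07% were higher and 9.97% lower without shControl replicate 3, and 7.83% were higher and 9.84% lower without shSmurf1 replicate 1. HOXA4, HOXA5, HOXC5 and HOXC9 passed the test in every alternative in which they were tested.

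**Figure D2:**
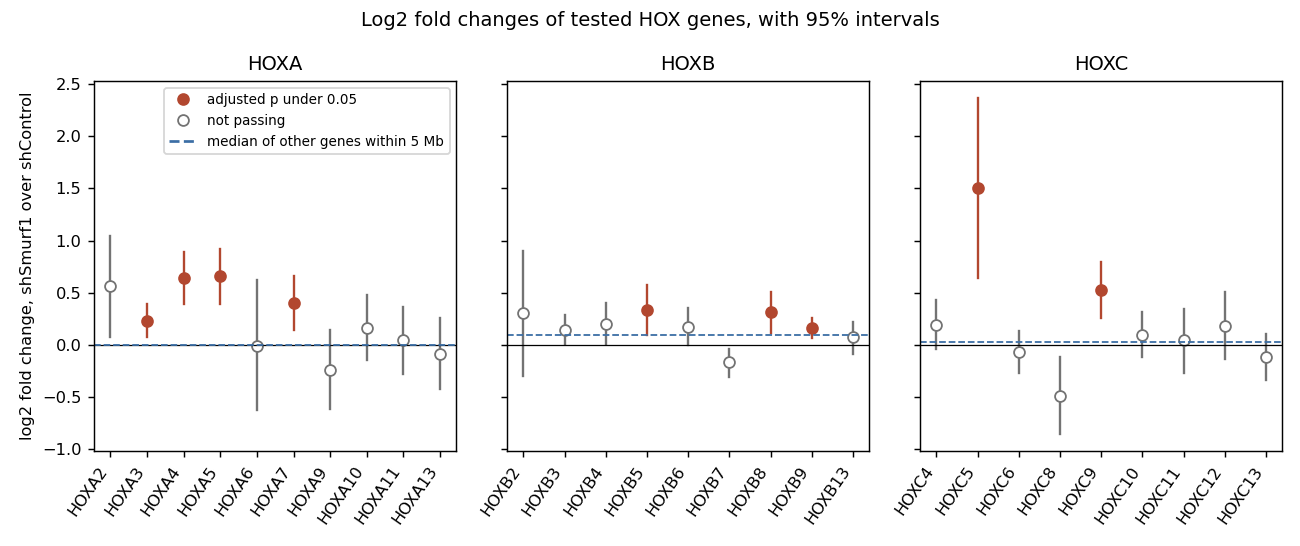
Log2 fold change, shSmurf1 over shControl, of tested HOX genes with 95% intervals, in numerical order within each cluster; filled points passed at an adjusted p under 0.05, and the dashed line is the median of other tested genes within 5 Mb. Filled points lie at paralog groups 3 to 9, and open points at group 10 and above lie between −0.12 and 0.18.

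Of 18 tested members in paralog groups 3 to 9, 9 rose. Of 8 tested members in groups 10 to 13 none passed, with or without adjustment, and their log2 fold changes ran from −0.12 to 0.18. Of 3 tested members in groups 1 and 2 none passed either, but 1 was higher at an unadjusted p under 0.05, and their median log2 fold change of 0.30 was above the 0.20 of groups 3 to 9. All 3 members of paralog group 5 rose, at 0.66 for HOXA5, 0.33 for HOXB5 and 1.50 for HOXC5, though HOXC5 entered the test through the group in which it was high, so this count supports nothing about the paralog group. No test of the difference between these stretches was made, since the stretches were drawn after the values were seen.

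In the HOXA cluster 4 of 11 tested genes rose and none fell by edgeR, with a median log2 fold change of 0.16, and at an unadjusted p under 0.05 there were 5 higher and 0 lower. HOXA4 (ENSG00000197576) had 11.7, 12.2, 12.2 and 13 CPM in shSmurf1, against 6.50, 8.15, 9.15 and 7.70 CPM in shControl. Every shSmurf1 library was above every shControl library. The fold was 1.56 (log2 fold change 0.64 ± 0.12 SE, edgeR adjusted p = 0.000484).

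HOXA5 (ENSG00000106004), which in mouse is needed for lung development, had 13, 10.9, 9.73 and 9.59 CPM in shSmurf1, against 7.16, 6.81, 6.54 and 6.88 CPM in shControl. The groups did not overlap, and shSmurf1 replicate 1 was the highest. The fold was 1.58 (log2 fold change 0.66 ± 0.13 SE, edgeR adjusted p = 0.000713). HOXA4 and HOXA5 passed in all 18 alternatives, at log2 fold changes of 0.56 to 0.72 for HOXA4 and 0.55 to 0.72 for HOXA5.

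HOXA7 (ENSG00000122592) had 11.2, 11.1, 9.47 and 11 CPM in shSmurf1, against 7.46, 8.15, 7.16 and 9.65 CPM in shControl. Here the groups overlapped, since shSmurf1 replicate 3 lay under shControl replicate 4. The log2 fold change was 0.40 ± 0.12 SE (edgeR adjusted p = 0.0226), and HOXA7 missed the threshold without any 1 of shControl replicates 1, 2 or 3 or shSmurf1 replicates 1, 2 or 4, with adjusted p up to 0.0793.

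HOXA3 (ENSG00000105997) had 30.0, 33.4, 29.3 and 28.9 CPM in shSmurf1, against 27, 27.2, 24.8 and 24.5 CPM in shControl. Again there was no overlap, but the gap was narrow. The log2 fold change was 0.23 ± 0.077 SE (edgeR adjusted p = 0.0356). HOXA3 missed the threshold without any 1 of shControl replicates 1, 3 or 4 or shSmurf1 replicates 1 or 2, with adjusted p up to 0.133.

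The other 7 tested HOXA genes did not pass. HOXA2, which sets the identity of the second branchial arch, had 3.52, 6.79, 5.46 and 3.28 CPM in shSmurf1, against 4.12, 3.23, 2.49 and 3.03 CPM in shControl (log2 fold change 0.56 ± 0.23 SE, edgeR adjusted p = 0.0941). Its shSmurf1 libraries spread widely and overlapped those of shControl, and HOXA2 passed as higher with no low-count filter (adjusted p = 0.0418) and without shSmurf1 replicate 4 (adjusted p = 0.0375). HOXA10, HOXA11, HOXA13 and HOXA6 had log2 fold changes of 0.16, 0.04, −0.09 and −0.0088, each with a 95% interval that spans 0. HOXA9 stood at −0.24 with an interval of −0.62 to 0.14. The exons of HOXA3, HOXA4 and HOXA7 overlap HOXA-AS3 on the other strand, those of HOXA3 and HOXA4 also HOXA-AS2, and without strand the reads of such pairs cannot be told apart. On the same strand, HOXA3 and HOXA4 share exonic bases with the model AC004080.6, and HOXA3 also with AC004080.5. Of the 1747 exonic bases of HOXA4, 921 are shared with no other gene.

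**Figure D3:**
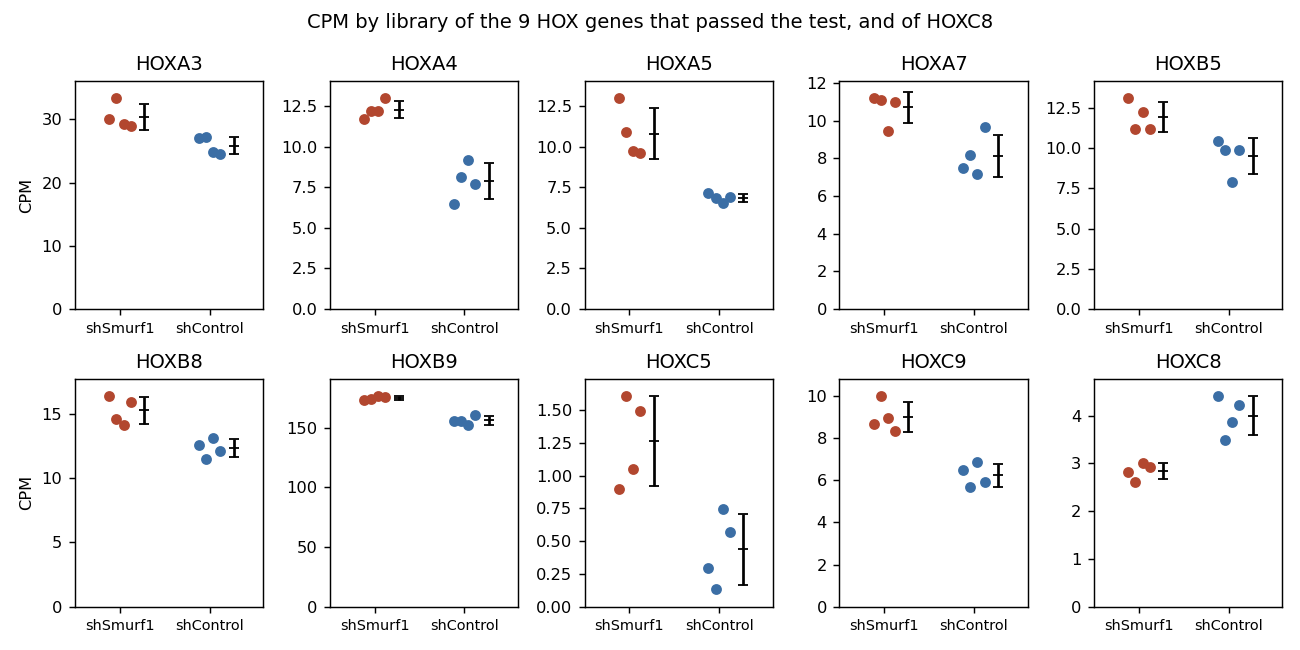
CPM in each library of the 9 HOX genes that rose and of HOXC8, on linear axes from 0; each point is 1 library, shSmurf1 left of shControl, with the mean and SD beside it (n = 4 each). The groups overlap in HOXA7 alone, and HOXC8 is the gene drawn with shSmurf1 below shControl.

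In the HOXB cluster 3 of 9 tested genes rose and none fell by edgeR, with a median log2 fold change of 0.17, and at an unadjusted p under 0.05 there were 5 higher and 1 lower. HOXB9 (ENSG00000170689) had 173, 174, 177 and 176 CPM in shSmurf1, against 156, 156, 152 and 161 CPM in shControl. Libraries of the 2 groups did not overlap and varied little within a group. The change was small, at 1.12-fold (log2 fold change 0.16 ± 0.046 SE, edgeR adjusted p = 0.0160), and HOXB9 missed the threshold without shControl replicate 3 (adjusted p = 0.0611).

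HOXB8 (ENSG00000120068), known for its part in blood cell progenitors, had 16.4, 14.6, 14.1 and 15.9 CPM in shSmurf1, against 12.6, 11.5, 13.1 and 12.1 CPM in shControl. No shSmurf1 library overlapped shControl. The log2 fold change was 0.31 ± 0.097 SE (edgeR adjusted p = 0.0264). HOXB8 missed the threshold in 9 of 18 alternatives, among them leaving out any 1 of shControl replicates 1, 2 or 4 or shSmurf1 replicates 1 or 4, with adjusted p up to 0.0881.

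HOXB5 (ENSG00000120075) had 13.1, 11.2, 12.2 and 11.2 CPM in shSmurf1, against 10.4, 9.84, 7.91 and 9.84 CPM in shControl. There was no overlap between the groups. The log2 fold change was 0.33 ± 0.11 SE (edgeR adjusted p = 0.0464), the nearest to the threshold of the 9. HOXB5 missed it in 10 of 18 alternatives, DESeq2 among them (adjusted p = 0.0717), and without any 1 of shControl replicates 2, 3 or 4 or shSmurf1 replicates 1, 2 or 4, with adjusted p up to 0.159.

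HOXB7 ran the other way and did not pass. It had 61.9, 52.6, 60.3 and 56.4 CPM in shSmurf1, against 68.1, 60.0, 65.3 and 67.2 CPM in shControl (log2 fold change −0.17 ± 0.065 SE, edgeR adjusted p = 0.0639). The groups overlapped, and it passed as lower without shSmurf1 replicate 3 (adjusted p = 0.0120), without shControl replicate 2 (adjusted p = 0.0451) and with the GC trend removed (adjusted p = 0.0303). HOXB2, HOXB3, HOXB4, HOXB6 and HOXB13 had log2 fold changes of 0.30, 0.14, 0.20, 0.17 and 0.07 and did not pass. Without shSmurf1 replicate 3, HOXB4 (adjusted p = 0.00263) and HOXB6 (adjusted p = 0.0208) passed as higher. HOXB3 shares exonic bases with HOXB4 and HOXB6 on the same strand, so reads could be lost or split among them, and HOXB5 overlaps HOXB-AS3 on the other strand.

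In the HOXC cluster 2 of 9 tested genes rose and none fell by edgeR, with a median log2 fold change of 0.09, and at an unadjusted p under 0.05 there were 2 higher and 1 lower. HOXC9 (ENSG00000180806), which in mouse sets the identity of thoracic motor neurons, had 8.65, 10.0, 8.94 and 8.34 CPM in shSmurf1, against 6.50, 5.66, 6.85 and 5.93 CPM in shControl. The lowest shSmurf1 library was above the highest shControl library. The fold was 1.44 (log2 fold change 0.52 ± 0.13 SE, edgeR adjusted p = 0.00487), and HOXC9 passed in all 18 alternatives at 0.47 to 0.57. Its model overlaps HOXC6 on the same strand and HOXC-AS2 on the other.

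HOXC5 (ENSG00000172789) was the rarest of the 9 and had the highest fold change. It had 14, 24, 16 and 25 counts in shSmurf1, against 5, 2, 12 and 9 counts in shControl, or 0.897, 1.61, 1.05 and 1.49 CPM in shSmurf1 against 0.298, 0.135, 0.747 and 0.568 CPM in shControl. Again no libraries overlapped. The log2 fold change was 1.50 ± 0.41 SE with a 95% interval of 0.64 to 2.37 (edgeR adjusted p = 0.0118). HOXC5 reached the count minimum in 4 shSmurf1 libraries and 1 shControl library, so it entered the test through the group in which it was high. It was not tested under a filter of 1 CPM in 4 libraries, and its exons share bases with the model AC012531.2 and with a processed transcript of the same name, which is no member.

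HOXC8, which in mouse marks brachial motor neurons, had 2.82, 2.62, 3.02 and 2.92 CPM in shSmurf1, against 4.42, 3.50, 3.86 and 4.23 CPM in shControl. Every shSmurf1 library was below every shControl library. The log2 fold change was −0.49 ± 0.18 SE, with an edgeR adjusted p of 0.0526, just outside the threshold. It passed without shSmurf1 replicate 3 (adjusted p = 0.0468) and under the filter of 1 CPM (adjusted p = 0.0493), and its adjusted p ran up to 0.137 over the alternatives. HOXC8 follows HOXC9 on the chromosome. HOXC6 stood at −0.07 with an interval of −0.27 to 0.13. HOXC4, HOXC10, HOXC11, HOXC12 and HOXC13 had log2 fold changes of 0.19, 0.09, 0.04, 0.18 and −0.12, and none passed.

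Genes around the clusters were set beside the HOX genes, to show how far each chromosomal stretch as a whole differed between the groups. Within 5 Mb of HOXA, the median log2 fold change of 51 other tested genes was −0.0073, with 7 higher and 5 lower. The long non-coding RNAs of the clusters count among these neighbours. Near HOXB, 155 genes had a median of 0.09, with 29 higher and 8 lower. Near HOXC, 175 genes had a median of 0.03, with 29 higher and 13 lower, and near HOXD, 51 genes had a median of −0.05, with 1 higher and 5 lower. Higher genes made up 13.7% near HOXA, 18.7% near HOXB, 16.6% near HOXC and 1.96% near HOXD, against 10.3% of all genes tested. Relative to these medians HOXA4 and HOXA5 stood at 0.65 and 0.66, HOXC9 at 0.49 and HOXB9 at 0.08. The HOXB9 log2 fold change of 0.16 was thus close to the 0.09 of its surroundings, and those of HOXA4, HOXA5 and HOXC9 were not.

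**Figure D4:**
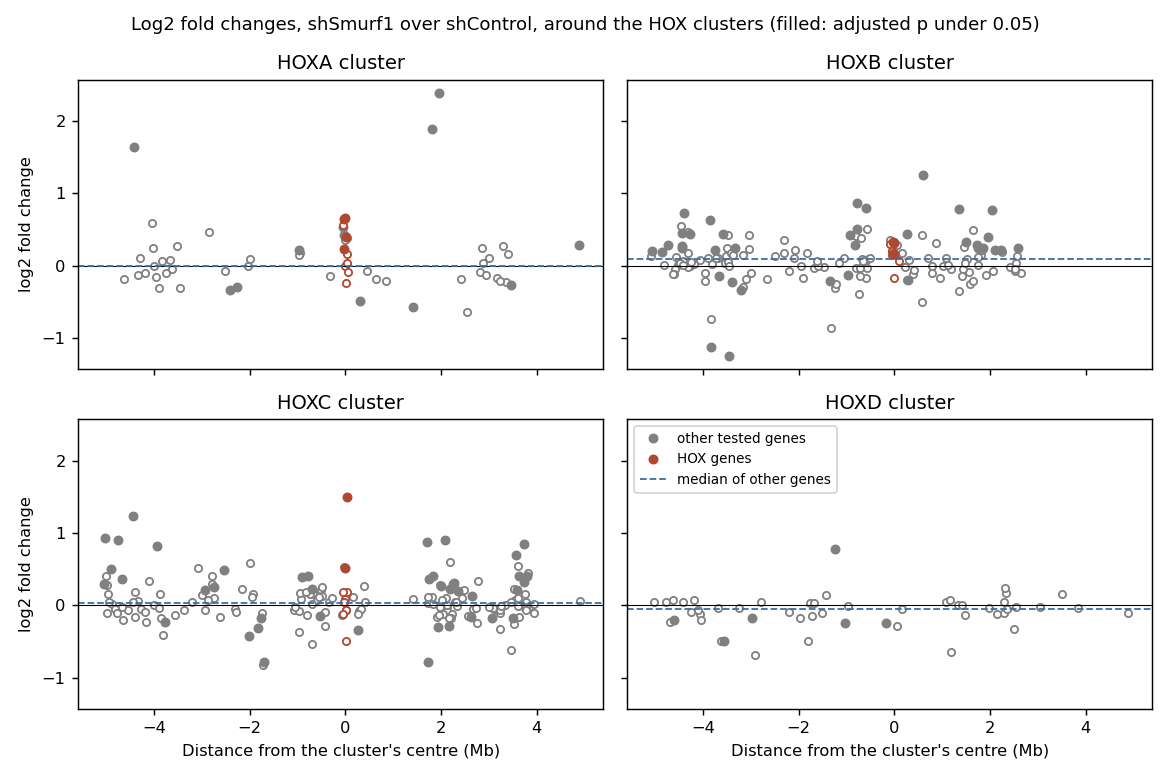
Log2 fold change, shSmurf1 over shControl, of tested genes by distance in Mb from the centre of each HOX cluster; HOX genes are red, other genes grey, filled where the adjusted p was under 0.05, and the dashed line is the median of the other genes. The dashed lines lie at −0.0073 (HOXA), 0.09 (HOXB), 0.03 (HOXC) and −0.05 (HOXD).

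Of 28 listed neighbours of the clusters, 21 were tested, 2 rose and 3 fell, and their median log2 fold change was −0.05. Over all genes tested 22.5% changed, so 2 and 3 of 21 lay near the common share. CHN1, a RAC signalling gene 1.24 Mb from the centre of HOXD, rose to 23.4 ± 0.924 CPM in shSmurf1, against 13.6 ± 1.31 CPM in shControl (log2 fold change 0.78, edgeR adjusted p = 3.36e-06). ATP5MC1, an ATP synthase subunit near HOXB, rose with a log2 fold change of 0.44, and CBX5, a heterochromatin protein near HOXC, fell with −0.34. HNRNPA1 and HNRNPA3 did not pass, though HNRNPA1 passed as lower without shSmurf1 replicate 3 (adjusted p = 0.0236) and HNRNPA3 as higher with the GC trend removed (adjusted p = 0.00893). Without shSmurf1 replicate 3, 7 of the 21 were lower, against 17.3% of all genes in that fit. With the GC trend removed 4 were higher and 3 lower, against 14.2% and 14.5% of all genes.

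Of the long non-coding RNAs inside the clusters, HOTAIRM1 and HOXA-AS2 rose. Of 21 listed, 18 were found and 10 tested, of which 2 rose and 8 did not pass, with a median log2 fold change of 0.36. Since 10.3% of all genes tested rose, a count this small does not set the list apart. HOTAIRM1, an RNA of the HOXA cluster, had 10.8, 12.8, 13.9 and 10.7 CPM in shSmurf1, against 8.53, 7.89, 9.40 and 7.44 CPM in shControl. The groups did not overlap (log2 fold change 0.54 ± 0.12 SE, edgeR adjusted p = 0.00321). HOTAIRM1 shares exonic bases with a gene on the other strand. HOXA-AS2, which lies against HOXA3 and HOXA4, averaged 12.2 ± 1.34 CPM in shSmurf1 and 9.11 ± 0.365 CPM in shControl (log2 fold change 0.42 ± 0.11 SE, edgeR adjusted p = 0.00990). HOXB-AS4 and HOXB-AS3 had log2 fold changes of 0.31 and 0.20 and did not pass (adjusted p = 0.0566 and 0.322), though HOXB-AS4 passed as higher without shSmurf1 replicate 3 (adjusted p = 0.00613). HOTAIR, transcribed from the HOXC cluster and known to bind Polycomb proteins, stood at 0.53 with an adjusted p of 0.0540, and passed as higher with the GC trend removed (adjusted p = 0.0421).

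HOX proteins bind DNA together with cofactors of the TALE homeodomain class, the PBX and MEIS proteins. Of 11 such genes 10 were tested, 4 rose and 6 did not pass, with a median log2 fold change of 0.16. Among all genes tested 10.3% rose. MEIS3 had 109, 116, 87.5 and 119 CPM in shSmurf1, against 80.0, 79.9, 91.5 and 88.4 CPM in shControl. The groups overlapped, since shSmurf1 replicate 3 lay under 2 shControl libraries, and the log2 fold change was 0.34 ± 0.079 SE (edgeR adjusted p = 0.00342). MEIS2 averaged 72.0 ± 2.74 CPM in shSmurf1 and 57.8 ± 1.22 CPM in shControl (0.32, adjusted p = 0.000329). PBX2 rose by 0.19 (adjusted p = 0.0201), and lost its call without any 1 of shControl replicates 1, 3 or 4 or shSmurf1 replicates 1, 2 or 4 (adjusted p up to 0.0700). PBX3 and TGIF1 had log2 fold changes of 0.08 and −0.06 and did not pass, though PBX3 passed as higher with the GC trend removed (adjusted p = 0.0420).

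Genes of retinoic acid, the vitamin A derivative that activates HOX genes in the embryo, changed more often than not. Of 18 listed 11 were tested, 7 rose, 2 fell and 2 did not pass, with a median log2 fold change of 0.30. Over all genes tested 10.3% rose and 12.2% fell. STRA6, a receptor that takes up retinol, had 27, 27.1, 20.4 and 22.5 CPM in shSmurf1, against 9.07, 9.44, 9.03 and 8.45 CPM in shControl. The groups did not overlap (log2 fold change 1.43 ± 0.11 SE, edgeR adjusted p = 1.12e-08). DHRS3, which turns retinal back to retinol, averaged 165 ± 5.88 CPM in shSmurf1 and 94.2 ± 3.03 CPM in shControl (0.81, adjusted p = 9.5e-10). CYP26B1, which breaks retinoic acid down, averaged 9.78 ± 0.771 CPM in shSmurf1 and 6.42 ± 1.64 CPM in shControl (0.61, adjusted p = 0.00723).

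RDH10, which makes retinal from retinol, fell to 24.8 ± 2.02 CPM in shSmurf1, against 36.0 ± 2.70 CPM in shControl (log2 fold change −0.54, edgeR adjusted p = 6.67e-05). ALDH1A3, which makes retinoic acid from retinal, rose by 0.34 on the log2 scale (adjusted p = 0.000192). The receptors RARA, RARB and RARG rose by 0.30, 0.25 and 0.41, and their partner RXRA fell by 0.20 (adjusted p = 0.0439). RXRA lost its call without any 1 of the 4 shControl libraries or shSmurf1 replicates 1 or 2, and with library totals alone. It kept the call with the GC trend removed (adjusted p = 4.37e-06). RXRB and CRABP2 did not pass. The genes of this list that rose thus include both makers and breakers of retinoic acid. RARB overlaps TOP2B, STRA6 overlaps CCDC33 and RARA overlaps RARA-AS1 on the other strand, so their reads cannot be told apart.

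**Figure D5:**
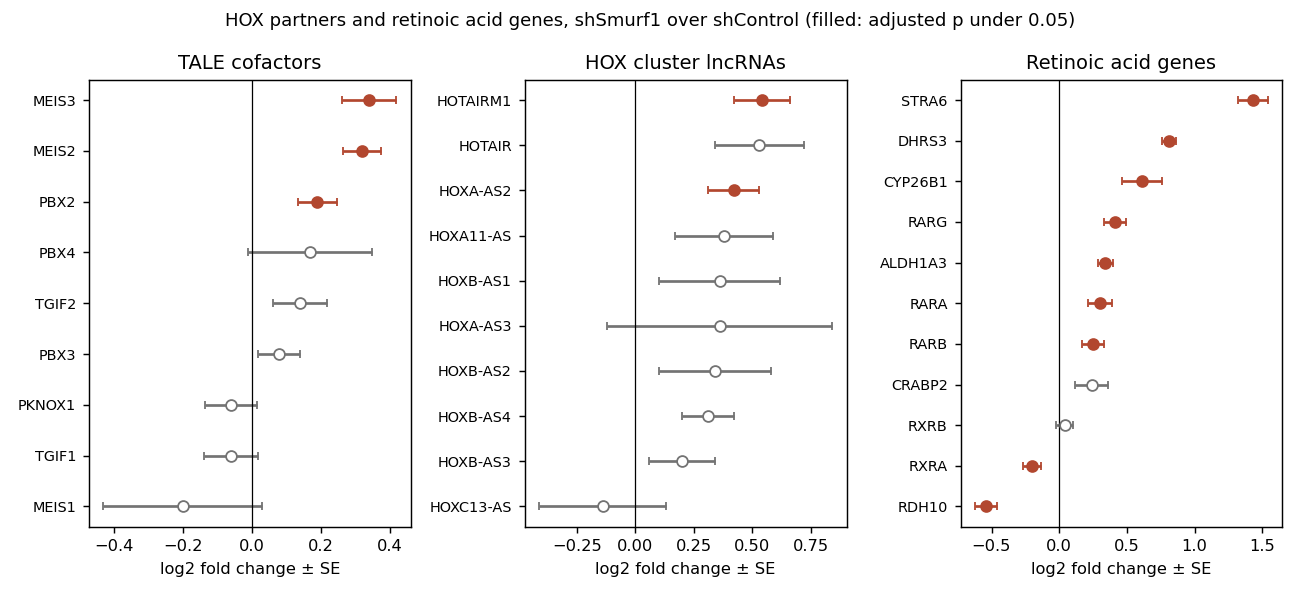
Log2 fold change, shSmurf1 over shControl, with SE, of tested TALE cofactors, long non-coding RNAs of the HOX clusters and retinoic acid genes; filled points passed at an adjusted p under 0.05. MEIS3 stands at 0.34 among the cofactors, HOTAIRM1 leads the RNAs at 0.54 and STRA6 leads the retinoic acid genes at 1.43, while RDH10 stands lowest at −0.54.

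In the main fit, chromatin regulators of the HOX clusters changed at shares near or below the 22.5% of all genes tested. Without shSmurf1 replicate 3, the shares of both Polycomb complexes and of the trithorax group lay above the 33.7% of all genes. With the GC trend removed, Polycomb repressive complex 2 and the trithorax group lay above the 28.7% of all genes, and Polycomb repressive complex 1 below it. Of 12 subunits of Polycomb repressive complex 2, which methylates H3K27, 1 rose and 2 fell, with a median log2 fold change of −0.09. PHF1, an accessory subunit, rose by 0.25 (edgeR adjusted p = 0.0129). RBBP4 fell by 0.25 (adjusted p = 0.00167) and EZH2, the methyltransferase, fell by 0.19 (adjusted p = 0.0265). EZH2 had 82.0, 87.9, 101 and 88.4 CPM in shSmurf1, against 106, 105, 98.7 and 102 CPM in shControl, with overlapping groups. It lost its call without any 1 of shControl replicates 1, 2 or 4 or shSmurf1 replicates 1, 2 or 4 (adjusted p up to 0.109), and PHF1 without shControl replicate 1 (0.0508) or shSmurf1 replicate 1 (0.0551). Without shSmurf1 replicate 3, 2 of the 12 were higher and 4 lower, against 33.7% of all genes called in that fit, and with the GC trend removed 2 were higher and 3 lower, against 28.7%. RBBP7 and PHF19 did not pass, though RBBP7 passed as higher in 6 of 18 alternatives, among them DESeq2 (adjusted p = 0.0486), library totals alone (0.0292) and the GC trend removed (0.00044).

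Of 19 subunits of Polycomb repressive complex 1, 2 rose and 1 fell, with a median of 0.05. The chromodomain subunits CBX2 and CBX8, which read methylated H3K27, rose by 0.49 (edgeR adjusted p = 0.00241) and 0.41 (adjusted p = 0.0191), and PCGF5 fell by 0.36 (adjusted p = 0.00152). CBX8 lost its call on leaving out replicate 1 or 2 of either group (adjusted p up to 0.0759). Without shSmurf1 replicate 3, 6 were higher and 2 lower, against 33.7% of all genes called in that fit. PHC2 and CBX6 did not pass, though CBX6 passed as higher without shSmurf1 replicate 3 (adjusted p = 0.0150). CBX2, CBX8 and the HOXB cluster all lie on chromosome 17.

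Of 17 trithorax group members and related enzymes, 1 rose and 1 fell, with a median of 0.04. KMT2C, an H3K4 methyltransferase, fell to 92.7 ± 2.52 CPM in shSmurf1, against 120 ± 2.89 CPM in shControl (log2 fold change −0.37, edgeR adjusted p = 2.29e-05). DOT1L, an H3K79 methyltransferase, rose by 0.21 (adjusted p = 0.0435), but missed the threshold in 12 of 18 alternatives, 7 of them leaving out a library other than shSmurf1 replicate 3 (adjusted p up to 0.168). Without shSmurf1 replicate 3, 4 were higher and 3 lower, and with the GC trend removed 4 were higher and 2 lower; calls over all genes grew to 33.7% and 28.7% in these fits. RAD21 and PSIP1 did not pass, though RAD21 passed as lower without shSmurf1 replicate 3 (adjusted p = 0.00740) and PSIP1 as higher with the GC trend removed (adjusted p = 0.00141).

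Among 25 other homeobox genes of the ANTP class, to which HOX genes belong, 9 were tested, 1 rose and 8 did not pass, with a median log2 fold change of −0.15. As 10.3% of all genes tested rose, 1 of 9 lay near the common share. DLX4, a distal-less gene on chromosome 17 like the HOXB cluster, averaged 28.8 ± 1.37 CPM in shSmurf1 and 16.8 ± 1.51 CPM in shControl (0.78, edgeR adjusted p = 1.68e-06). DLX1 and DLX2, which lie on chromosome 2, had log2 fold changes of −0.12 and −0.21 and did not pass, and 5 of the 25 (CDX4, PDX1, GSX1, EN1 and OTX2) had no count. With the GC trend removed, 2 of the 9 were lower, 1 of them DLX2 (adjusted p = 0.0144), against 14.5% of all genes in that fit.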

How the data were processed

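RNA-seq was done on 8 libraries of SRA01/04 cells, 4 shSmurf1 and 4 shControl, grouped by their labels. Per the labels' protocols, polyadenylated RNA was primed with random hexamers, and no strand-marking step is described. The deposited table holds whole-number read counts that the authors left unnormalized. The submitters' processing notes name CASAVA and fastp, HISAT2 (2.0.5) and featureCounts (1.5.0-p3). Which genome build and gene models were used is not given in the sources used here. All 58735 identifiers were found in GENCODE release 29 (GRCh38), which gave symbols, coordinates, exon lengths and GC content. PCR reads are not independent molecules, so the floor of 3 counts covers counting error only.

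The 15647 genes that passed filterByExpr (minimum count 10) were scaled by TMM and tested with edgeR version 4.0.16 in R version 4.3.3 by the quasi-likelihood F test, two-sided, with Benjamini-Hochberg adjustment over all genes tested. SE was taken as the size of a log2 fold change over the root of its F statistic. CPM is counts over the TMM-scaled library size, and RPKM divides CPM by exon length. The count test was tested on simulated data. Alternatives were DESeq2 version 1.42.0, limma-voom version 3.58.1, other scalings and filters, removal of the trend with GC content (a spline with 5 degrees of freedom), the replicate number as a block, and each library left out; removal of the GC trend without shSmurf1 replicate 3 was added after seeing the data. The members and lists were chosen with earlier results of these data known. Named genes were all HOX members and, in each other list, up to 4 changed genes with the largest change and 2 unchanged genes with the highest CPM; ALDH1A3, RARA, RARB, RARG, RXRA, HOTAIR, MTX2, ATP5MC3, EVX2 and the markers were added after their values were seen. Promoter windows stand in place of the homeodomain sequences first planned. Some genes selected by the rule are not reported here and are not drawn.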

Additional observations from a re-analysis of the deposited data

Results flagged for a closer look

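HOXA7 in shSmurf1 replicate 3 had 9.47 CPM, against 11 to 11.2 CPM in the other 3 shSmurf1 libraries. Its gap to the nearest of them was 0.895 of the range of the group, beyond Dixon's 95% critical value for 4 values. HOXA10 in shControl replicate 4 had 5.87 CPM, against 4.78 to 4.86 CPM in the other 3 shControl libraries, a gap of 0.933 of the range. Over the 66 groups examined these were the 2 values beyond the critical value, where chance gives about 1 in 20.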

How the results depend on the processing

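SMURF1 fell in all 18 alternatives, at log2 fold changes of −0.82 to −0.78. The count of HOX genes that rose was 9, and 5 to 11 when 1 library was left out; the count that fell was 0, and 0 to 2 when 1 library was left out. It was 1 under the filter of 1 CPM in 4 libraries (HOXC8), and 1 (HOXB7) with the GC trend removed, with the GC trend removed together with the replicate block, and with the GC trend removed without shSmurf1 replicate 3. Among the other 8 HOX pathway lists 20 genes rose and 9 fell; leaving out 1 library gave 14 to 29 higher and 6 to 18 lower, removal of the GC trend with the block gave 14 lower, and removal of it without shSmurf1 replicate 3 gave 31 higher and 15 lower. Counting only exonic bases shared with no other gene, HOXA held 21.0% in shSmurf1 and 18.1% in shControl, HOXB held 64.5% in shSmurf1 and 67.1% in shControl, and HOXD held 0.0841% in shControl. The median near HOXA was 0.15 within 2 Mb, a window with few other genes, and that near HOXB was 0.03 within 10 Mb. The causes of these shifts were not tested.

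Some genes that did not pass changed sign. HOXA6 (main value −0.0088) stood at 0.01 with library totals alone, and ran from −0.18 to 0.13 when 1 library was left out, above 0 for 4 of the 8. HOXA11 stood at −0.10 with the GC trend removed without shSmurf1 replicate 3, and ran from −0.05 to 0.13 with 1 library left out, below 0 for 3 of the 8. With 1 library left out, HOXA13 ran from −0.17 to 0.00065 (above 0 without shControl replicate 2 or shSmurf1 replicate 1), HOXC6 from −0.11 to 0.00094 (above 0 without shSmurf1 replicate 3) and HOXC11 from −0.0036 to 0.10 (below 0 without shControl replicate 2). With the GC trend removed without shSmurf1 replicate 3, HOXB13 stood at −0.0033, TGIF1 at 0.0067, PHF19 at −0.01, PHC2 at −0.03 and RXRB at −0.0015. PHC2 and RXRB stood at −0.02 with the GC trend removed, with or without the block.

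The replicate numbers did not pair the libraries: deviations of same-numbered libraries correlated at 0.0487, −0.00836, −0.17573 and 0.05955. With the replicate block 8 HOX genes were higher and 0 lower, and HOXB5 was lost (adjusted p = 0.0612). Depth limits the HOXD genes and HOXC5, whose counts in shControl were 2 to 12.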
